A study of Rattus norvegicus with 8 samples.

Results

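The genes described here are 10 transcripts that are widely read as the output of mechanical signalling in cells, the targets of the coactivator YAP and of serum response factor (SRF), in rat Achilles tendon after running. They were chosen by name, namely Srf, Actb, Actg1, Vcl, Flna, Ccn1 (Cyr61), Ccn2 (Ctgf), Amotl2, Lats2 and Ankrd1, and all 10 had a row among the 15590 genes of the deposited table. RNA was sequenced from the tendons of wild-type rats, with 4 libraries from animals that were killed as soon as a treadmill run of 1 h ended (called 0 h p.r., for post-running) and 4 from naïve controls kept at their normal activity (NC). As the study's methods describe, the rats were male SD (Sprague-Dawley) animals 8 to 10 weeks old, ran uphill at a 10° incline and 20 m/min under airflow with a mild electric stimulus, and gave the tendon of the right leg. The controls were killed together with the rats of a 12-hour p.r. group, so that running and the time of killing cannot be told apart.

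Stretch and a stiff, tense actin cytoskeleton let YAP and its paralogue TAZ enter the nucleus, where they bind TEAD factors and switch on genes such as Ccn1 and Ccn2; the kinase LATS2 and the scaffold AMOTL2 are targets that in turn restrain YAP. SRF acts with different partners. The MRTF proteins, freed when actin monomers polymerize, direct it to genes of the cytoskeleton, and the ternary complex factors, driven by MAP kinases, direct it to immediate-early genes such as Fos. In tendon, which carries load along aligned collagen, both routes are studied as ways by which tenocytes sense strain.

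The sequences that bear on this division are the promoters, which were found in the RefSeq set for GRCr8 for 7 of the 10 genes, all but Ankrd1, Lats2 and Actb. In the 250 bases before the annotated start, both strands were searched for the CArG box, the 10-base site of SRF, and for CATTCC or its reverse complement GGAATG, the core of the TEAD site, motifs which do not overlap each other in the promoters shown. A CArG box was found in the promoters of Srf and Actg1 (2 of 7 genes), against 1.5% of 33469 promoters of the same length. Srf had 2 of them. A TEAD core was found in Ccn1, Ccn2, Amotl2, Vcl and Flna (5 of 7), against 12.1% of all promoters, and Ccn2 had 3 copies. These matches describe letters in a window, and binding was not measured. Srf and Actg1 are shown for the CArG box and the CCN genes for the TEAD core, of which Ccn1 had 1 copy, as did Amotl2, Vcl and Flna. The promoters of Srf (chr9:21923826-21924075, plus strand), Actg1 (chr10:106120952-106121201, minus strand), Ccn1 (chr2:237225690-237225939, minus strand) and Ccn2 (chr1:22624615-22624864, minus strand), all in GRCr8, are given 5′ to 3′ with the matches in capitals.
Srf: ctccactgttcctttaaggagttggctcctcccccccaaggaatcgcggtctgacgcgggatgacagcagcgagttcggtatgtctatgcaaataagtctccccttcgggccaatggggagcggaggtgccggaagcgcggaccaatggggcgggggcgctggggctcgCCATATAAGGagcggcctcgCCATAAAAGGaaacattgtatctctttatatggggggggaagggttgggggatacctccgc
Actg1: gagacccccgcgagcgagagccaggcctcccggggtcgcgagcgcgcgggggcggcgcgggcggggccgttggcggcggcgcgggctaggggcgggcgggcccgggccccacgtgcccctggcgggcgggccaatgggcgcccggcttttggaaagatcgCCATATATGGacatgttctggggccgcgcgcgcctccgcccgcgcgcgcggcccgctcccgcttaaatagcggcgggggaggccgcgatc
Ccn1: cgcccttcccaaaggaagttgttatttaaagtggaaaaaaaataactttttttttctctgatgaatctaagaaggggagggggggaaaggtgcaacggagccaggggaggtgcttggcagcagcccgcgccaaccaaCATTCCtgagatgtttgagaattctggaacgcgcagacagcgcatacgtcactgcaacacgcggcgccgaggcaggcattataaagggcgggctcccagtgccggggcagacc
Ccn2: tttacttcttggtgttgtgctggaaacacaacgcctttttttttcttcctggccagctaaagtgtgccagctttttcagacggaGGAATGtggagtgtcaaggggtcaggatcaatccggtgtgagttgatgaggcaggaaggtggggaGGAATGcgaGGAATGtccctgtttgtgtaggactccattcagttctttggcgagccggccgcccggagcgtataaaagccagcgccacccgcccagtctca
The expression values were made on the build Rnor_6.0, so no gene positions of that build are given.

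Expression was measured as FPKM (fragments counted per unit of gene length and of library depth, scaled between libraries). Whole reads recovered from these values gave a depth of 11353941 to 17903265 reads per library, and the 10 genes held between 51 (Ankrd1) and 43593 reads (Ccn2) in a library. NC replicate 2 stood apart by a mitochondrial share of 31.1% of the FPKM, against 16.3% to 21.9% in the others. Its FPKM summed to 900138, against 554130 to 746030. Among the controls it was lowest for Srf, Vcl, Flna, Ccn1, Ccn2, Amotl2, Lats2 and Ankrd1, and highest for Actg1. Without it the log2 fold changes of the former genes in the test below were lower (Srf 0.81 against 0.90, Vcl 0.59 against 0.72, Ccn1 0.64 against 0.80). That of Actg1 was higher (1.02 against 0.96). All 8 tendon markers, Tnmd, Scx and Mkx among them, were detected in every library. Of these 8, 0 passed the adjusted p of the test below, beside 5.72% of all genes, a share at which few calls among 8 genes would be found. Their sum, most of it from the matrix genes Dcn and Col1a1 and so no measure of Tnmd or Mkx, was 6831 to 12113 FPKM in NC against 9512 to 20181 after running, where Tnmd had means of 224 and 177 FPKM and Mkx of 9.78 and 8.51. The summed FPKM of 8 skeletal muscle markers spanned 4728 to 7672 in NC but 1059 (replicate 4) to 34999 (replicate 1) in 0 h p.r. These markers did not move together, with 6 positive log2 fold changes and 2 negative, those of Myh7 (-3.42, limma adjusted p 0.169) and Mb (-1.12, 0.476). The 6 fat cell markers were lower in every 0 h p.r. library (summed FPKM 813 to 1754) than in NC (2388 to 4406), and the 6 cartilage and bone markers summed to 128 to 501 FPKM in 0 h p.r. against 15.1 to 130 in NC, with 2 of the 6 listed at 0 in a library. In the same test 3 of the 6 fat cell markers passed, all lower, and 0 of the 6 cartilage and bone markers, beside 5.72% of all genes. Since dissected tendon is a mixture, fewer cells of a type and less RNA per cell cannot be told apart. The part of these tissues in the results below was not tested, apart from a fit with the muscle markers as a covariate. The labels give replicate numbers and not whether tendons were pooled, so p-values measure the spread between these libraries.

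At rest, the 10 genes covered a wide range of levels per length. Actb was the most abundant at 1031 ± 54.3 FPKM in NC (SD, n = 4), followed by Ccn2 at 421 ± 135 and Flna at 157 ± 27.5, and the NC ranges of these 3 genes overlapped neither each other nor those of the remaining 7. The other genes lay between 47.1 ± 8.15 FPKM (Vcl) and 17.0 ± 2.70 FPKM (Srf), in the order Vcl, Actg1, Ccn1, Ankrd1, Amotl2, Lats2 and Srf, and no neighbours in that order were separated by their ranges. The place of Actg1 is uncertain, since summed with LOC100361457, a row described below, it had 311 to 407 FPKM in NC, above the range of Flna and within that of Ccn2.

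The comparison of 0 h p.r. with NC asked whether the targets of the YAP and SRF routes changed with running. In limma on log2(FPKM + 0.5), 2 of the 10 genes had an adjusted p under 0.05, Actg1 and Srf, both higher after running, beside 5.72% of the 13863 genes tested (3.49% higher and 2.23% lower). None of the 10 also reached a fold of 2, which 2.70% of all genes did at that adjusted p in limma; voom on the recovered reads gave the same count of 0, as did an unadjusted p under 0.05 with a fold of 2 in limma. Without an adjustment 6 of the 10 had a p under 0.05, beside 22.6% of all genes. The 4 libraries of 0 h p.r. lay above all NC libraries for 6 genes (Srf, Actg1, Actb, Vcl, Ccn1 and Lats2), where this was so for 8.15% of all genes, and below them for none of the 10, where 7.47% of all genes did so. The log2 fold change was positive for 8 of the 10, beside 49.9% of all genes, with a median of 0.34 over the 10 genes and -0.0014 over all genes tested.

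**Figure D1:**
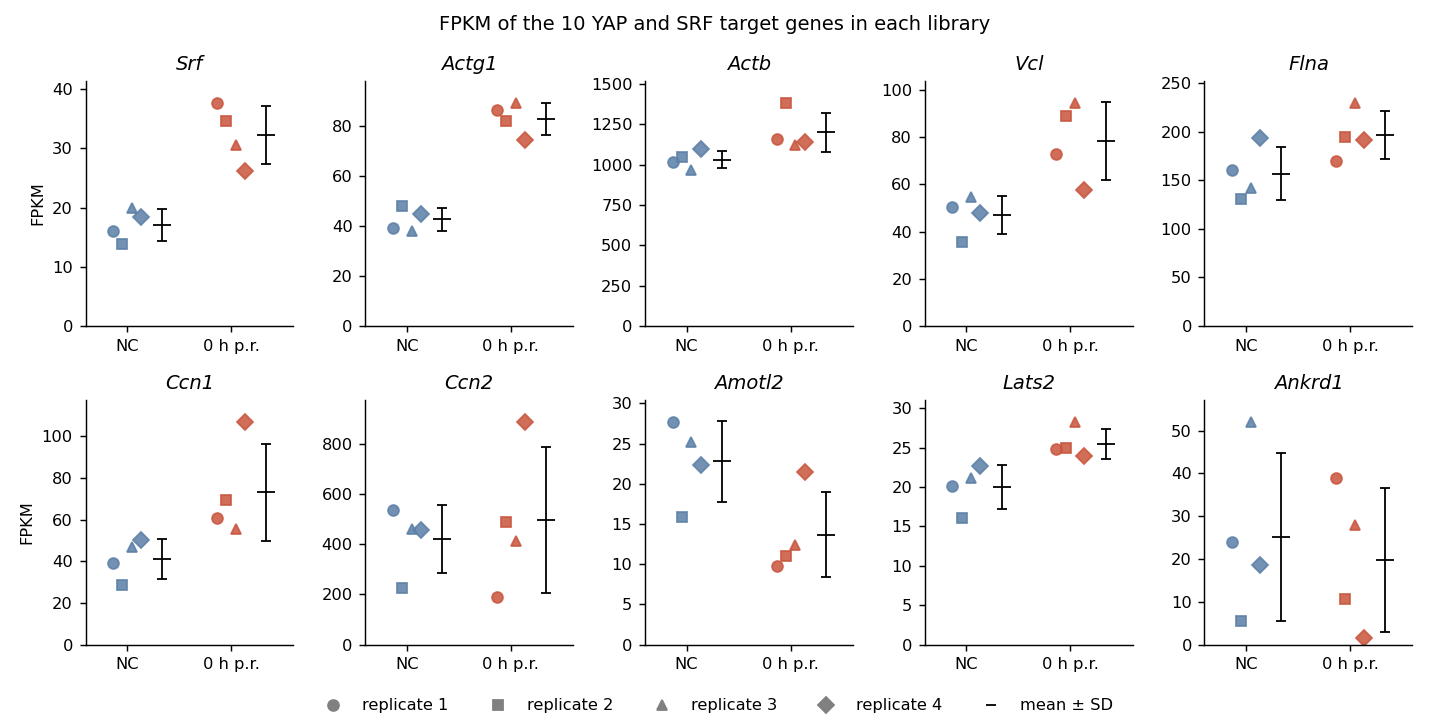
FPKM (vertical axes, each from 0) of the 10 genes in the 4 NC and 4 0 h p.r. libraries, with a marker shape for each replicate and the mean ± SD beside the points. The groups are apart for Srf, Actg1, Actb, Vcl, Ccn1 and Lats2 and overlap for Flna, Ccn2, Amotl2 and Ankrd1.

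Srf (ENSRNOG00000018232) encodes the factor itself and is one of its own targets. Its FPKM was 16.0, 13.8, 19.97 and 18.3 in NC replicates 1 to 4 and 37.6, 34.6, 30.5 and 26.2 in the 0 h p.r. libraries. Every library after running lay above every control, and replicate 4 was the lowest of the 4. The mean FPKM was 17.0 ± 2.70 at rest and 32.3 ± 4.96 after running (SD, n = 4). Srf rose 1.87-fold (log2 value 0.90, SE 0.16, adjusted p 0.0142 in limma, higher in 4 of 4 libraries). The call was lost when NC replicate 1 (adjusted p 0.0525 in limma) or 0 h p.r. replicate 2 (0.0568) was removed, with log2 fold changes of 0.88 and 0.86, and it held in the other 6 fits that each left out a library.

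Actin genes followed, since actin is both the sensor of the MRTF route and among its targets. Actg1 (ENSRNOG00000053452), which encodes cytoplasmic gamma actin, had 39.4, 48.2, 38.3 and 45.0 FPKM in the controls against 86.7, 82.0, 89.3 and 74.6 after running. The lowest library after running was well above the highest control, and the spread within each group was small (CV 10.98% in NC against 7.73% after running). Actg1 rose 1.94-fold (log2 fold change 0.96, SE 0.12, limma adjusted p 0.00372, higher in 4 of 4 libraries) and passed in all 8 fits that left out a library, with adjusted p of 0.00395 to 0.0198.

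The level of Actg1 is uncertain, because its reads could be split with another row of the table. A protein-coding row named LOC100361457 followed Actg1 with a Pearson's r of 0.996 over the 8 libraries, the highest of any tested gene with a symbol, and its recovered gene length of 1128 bases is that of the coding sequence of a cytoplasmic actin. Whether both rows share reads was not tested. LOC100361457 was chosen for description after its values were seen. It had 304 ± 41.5 FPKM in NC against 576 ± 55.2 after running (SD, n = 4) and groups that were apart (adjusted p 0.0138 in limma, log2 value 0.93). The FPKM of Actg1 was 13.4% to 14.8% of that of LOC100361457 in every library, with a CV of 3.15% where counting error alone would give 2.85%. The sum of both rows was 347 ± 46.1 FPKM in NC against 659 ± 61.4 after running, a ratio of means of 1.90. Relative to Actb, described next, this sum was 0.305 to 0.388 in NC against 0.475 to 0.647 after running, with groups that were apart.

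Actb (ENSRNOG00000034254), for cytoplasmic beta actin and a common reference in PCR, had 1017, 1047, 966 and 1095 FPKM in the controls against 1159, 1381, 1126 and 1139 after running. The groups did not overlap, although NC replicate 4 and 0 h p.r. replicate 3 were close, and replicate 2 was far above the other 3 libraries after running. The difference was 1.16-fold and did not pass (log2 fold change 0.22, 95% interval -0.19 to 0.62, limma adjusted p 0.540). The ratio of Actg1 to Actb within a library, which a single scaling factor per library cannot move, was 0.0388, 0.0460, 0.0396 and 0.0411 in NC and 0.0748, 0.0594, 0.0793 and 0.0655 in 0 h p.r. The groups were apart, by 1.68-fold on average, with the smallest p that an exact two-sided permutation test over 70 assignments can give (0.0286, adjusted p 0.0857 over the 3 ratios tested, which were chosen after the values were seen).

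Of 10 other PCR reference genes with a row, 1 passed (beside 5.72% of all genes), Ywhaz, which rose by 0.52 on the log2 scale (148 FPKM at rest and 213 after running, adjusted p 0.0339 in limma, higher in 4 of 4 libraries). The median of their log2 fold changes was 0.093, and the highest was 0.81 (Pgk1, a glycolytic enzyme, limma adjusted p 0.146).

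Vcl and Flna encode proteins that join actin to adhesions and to itself. Vcl (ENSRNOG00000010765), for vinculin, which strengthens focal adhesions under tension, had 50.5, 35.6, 54.5 and 47.8 FPKM in the controls against 72.9, 88.8, 94.3 and 57.6 after running. Replicate 4 after running was only just above NC replicate 3, and the other 3 libraries were clearly higher. The difference was 1.65-fold and missed the threshold (log2 fold change 0.72, 95% interval 0.29 to 1.15, limma adjusted p 0.0602). It passed without 0 h p.r. replicate 4 (log2 fold change 0.86, limma adjusted p 0.0240), and its adjusted p reached 0.167 without 0 h p.r. replicate 2. Flna (ENSRNOG00000054890), for the actin crosslinker filamin A, had 161, 131, 142 and 193 FPKM in the controls against 169.9, 195, 229 and 191 after running. The groups overlapped, with 2 libraries after running above the highest control. The log2 fold change was 0.33 (95% interval -0.03 to 0.69, limma adjusted p 0.261).

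The classic YAP targets of the CCN family encode secreted matricellular proteins, and neither passed. Ccn1 (ENSRNOG00000014350) had 39.2, 28.6, 46.9 and 50.2 FPKM in the controls against 61.0, 69.2, 55.5 and 107 after running. All libraries after running were above all controls, and replicate 4 was far higher than the rest. The difference was 1.75-fold and did not pass (log2 fold change 0.80, 95% interval 0.26 to 1.34, limma adjusted p 0.0849). With the muscle markers as a covariate it passed (log2 fold change 0.83, limma adjusted p 0.0408), in a fit that called 1045 of all genes against 793 without the covariate.

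Ccn2 (ENSRNOG00000015036) had 537, 226, 463 and 458 FPKM in the controls against 192, 491, 413 and 889.8 after running. The libraries after running spanned a 4.64-fold range around the controls, with replicate 1 below and replicate 4 above all of them. The log2 fold change was 0.11 with a 95% interval of -0.91 to 1.13 (limma adjusted p 0.926), which is a fold of 0.532 to 2.18. Its sign turned when either NC replicate 2 (-0.17) or 0 h p.r. replicate 4 (-0.24) was removed. The ratio of Ccn1 to Ccn2 was 0.0731 to 0.127 in NC against 0.120 to 0.318 after running, with groups that overlapped (exact two-sided permutation p 0.0571, adjusted p 0.0857).

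The feedback genes of the Hippo pathway had log2 fold changes of opposite sign, and neither passed. Amotl2 (ENSRNOG00000008487), for a scaffold that holds YAP at junctions and on actin, had 27.7, 15.9, 25.1 and 22.4 FPKM in the controls against 9.77, 11.01, 12.4 and 21.5 after running. The first 3 libraries after running were below every control, whereas replicate 4 lay within the NC range. The log2 fold change was -0.76 (0.592-fold, 95% interval of the log2 value -1.33 to -0.18, limma adjusted p 0.120). Without 0 h p.r. replicate 4 it was -0.99 and passed (limma adjusted p 0.0222), and with the muscle markers as a covariate it was -0.71 and passed (0.0418). The fit with that covariate called 1045 of all genes, against 793 without it.

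Lats2 (ENSRNOG00000056343), for a kinase that phosphorylates YAP, had 20.1, 16.0, 21.1 and 22.7 FPKM in the controls against 24.8, 24.9, 28.3 and 23.9 after running. The groups were apart by a small margin, and the libraries after running were close to one another (CV 7.51%). The log2 fold change was 0.35 (95% interval 0.06 to 0.64, limma adjusted p 0.144). The ratio of Lats2 to its paralogue Lats1 was 2.82 ± 0.386 in NC against 2.83 ± 0.293 after running (SD, n = 4, exact two-sided permutation p 0.914).

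Ankrd1 (ENSRNOG00000018598), for an ankyrin repeat protein of striated muscle that is also a YAP target in other cells, was the most variable of the 10. It had 24.1, 5.53, 52.0 and 18.6 FPKM in the controls against 38.9, 10.6, 28.0 and 1.59 after running. The ranges were 9.41-fold wide in NC and 24.4-fold wide in 0 h p.r., and they overlapped. The log2 fold change was -0.63 with a 95% interval of -2.74 to 1.49 (limma adjusted p 0.758), and it was 0.24 without 0 h p.r. replicate 4. The log2 level of Ankrd1 had an r of 0.72 with the mean log2 level of the 8 muscle markers over the 8 libraries, and of 0.76 after the group means were removed. Its r was 0.84 both ways with the smooth muscle and pericyte markers, or 0.28 and 0.18 without Des, and 0.63 and 0.71 with those of endothelium. The 3 genes with the most similar pattern were RGD1564899, Adprhl1 and Alpk3 (r of 0.971 to 0.976), of which Alpk3 encodes a kinase of heart and skeletal muscle.

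**Figure D2:**
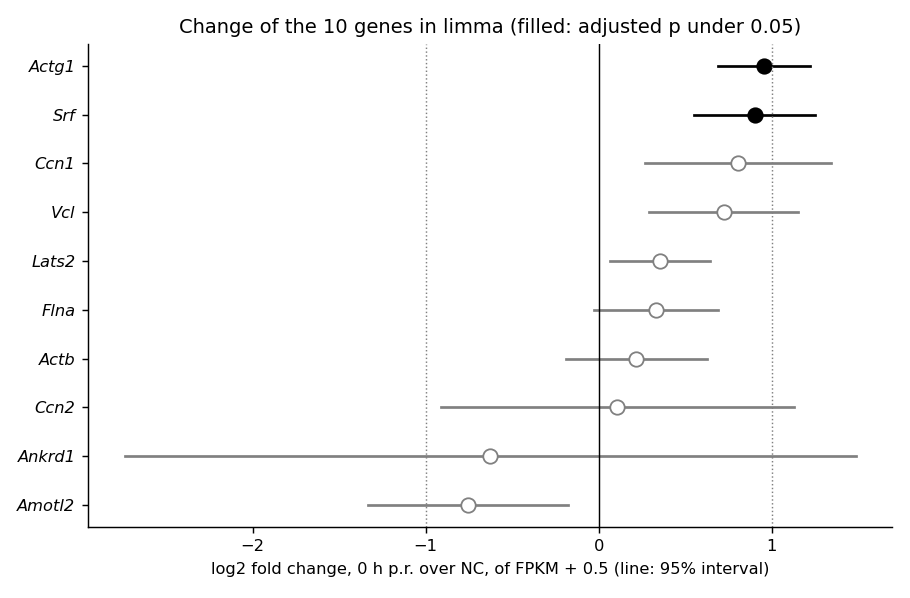
Log2 fold change of 0 h p.r. over NC for the 10 genes (horizontal axis, log2 of FPKM + 0.5), with lines for the 95% interval of the limma fit, filled circles for an adjusted p under 0.05, and dotted lines at a fold of 2. Actg1 and Srf are filled at 0.96 and 0.90, and Amotl2 and Ankrd1 lie at the low end.

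The 10 genes form 45 pairs, whose correlations over the 8 libraries are given as a description. Over all 8 libraries r was highest for Lats2 with Vcl (0.91), Srf with Vcl (0.90) and Lats2 with Flna (0.89). After the group means were removed, the 6 pairs farthest from 0 were Ccn2 with Amotl2 (0.90), Ankrd1 with Srf (0.82), Amotl2 with Actg1 (-0.81), Ccn1 with Amotl2 (0.81), Ankrd1 with Vcl (0.79) and Lats2 with Flna (0.79). These values describe 8 libraries that share their tissue mixture. Of the 0 h p.r. libraries, replicate 4 had the highest Ccn1, Ccn2 and Amotl2, the lowest Srf, Actg1, Vcl, Lats2 and Ankrd1, the lowest muscle markers and the highest cartilage and bone markers. Over all 8 libraries the log2 level of Ccn2 had an r of -0.87 with the muscle markers, and that of Ccn1 an r of 0.97 with the cartilage and bone markers. With the fat cell markers, whose groups were apart, r was -0.93 for Srf, -0.89 for Actg1 and 0.87 for Amotl2.

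**Figure D3:**
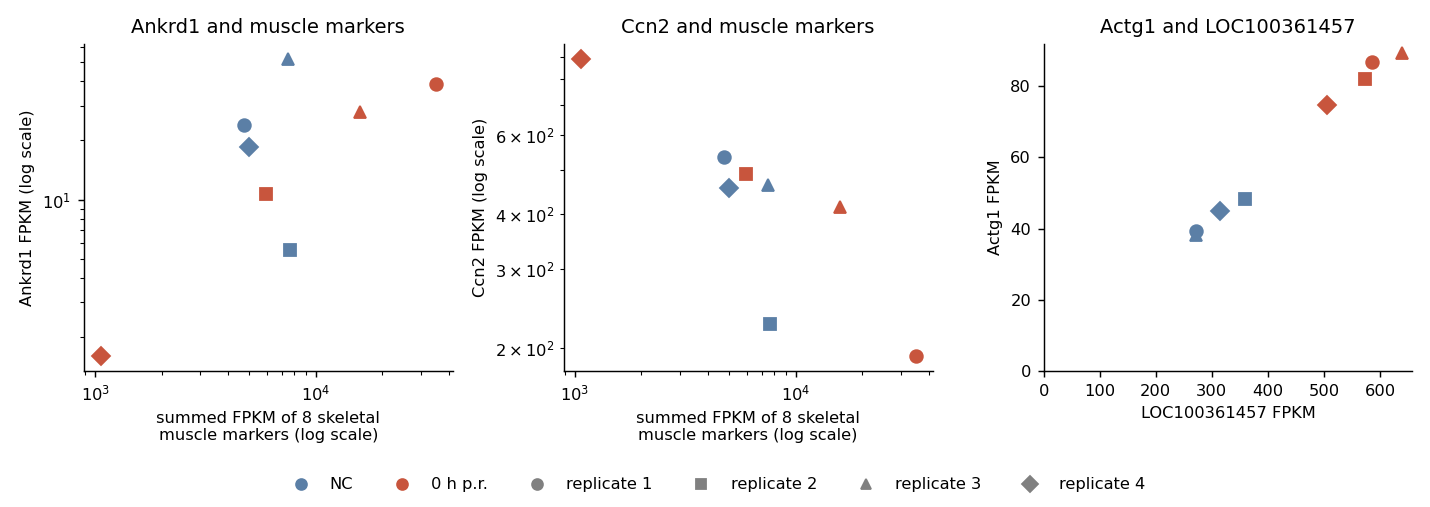
FPKM of Ankrd1 and Ccn2 against the summed FPKM of 8 skeletal muscle markers (left and middle, log axes) and FPKM of Actg1 against LOC100361457 (right, linear axes from 0), each point a library coloured by group and shaped by replicate. Ankrd1 is lowest and Ccn2 highest in 0 h p.r. replicate 4, which has the lowest muscle marker level, and Actg1 keeps a nearly fixed proportion to LOC100361457.

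The similarity of patterns was also taken over all tested genes, as a description over 8 libraries. Group means were not removed here, so genes that differ between the groups in the same direction have a high r for that reason too. Those most like Srf were Dnmbp, Ralgds and Tnfrsf12a (r of 0.99 each). Tnfrsf12a encodes the receptor Fn14 and had 17.4 to 29.7 FPKM in NC against 39.4 to 84.3 after running. After LOC100361457, Actg1 was most like the chemokine genes Ccl7 (r 0.995) and Ccl2 (0.99). Ccn1 was most like Tgfb1, the gene of a matrix-inducing growth factor (r 0.986), with Stc2 and Smoc2 next (0.985 and 0.981). The gene of the angiogenic factor Vegfa was among the 3 closest to Lats2 (0.984), and Notch2 among the 3 closest to Ccn2 (0.964).

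The other genes of both routes were counted from 6 lists with 98 genes, of which 93 had a row and all 93 of these were tested. Of them 16 passed the adjusted p (17.2%), all higher in 0 h p.r., beside 5.72% of all genes. The immediate-early targets of SRF gave 9 of these 16, and outside that list 7 of 82 passed (8.54%). The totals include 1 list that is not described by itself.

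Further YAP/TAZ targets gave 2 of 16 (12.5%, beside 5.72% of all genes), both higher. Nuak2, a kinase gene, had 2.64, 2.53, 2.68 and 3.06 FPKM in the controls against 5.65, 6.61, 4.59 and 4.41 after running. It rose by 0.84 on the log2 scale (limma adjusted p 0.0187), but 4 of the 8 leave-one-out fits lost the call (up to 0.0653 with NC replicate 1 removed). Fjx1, for a secreted kinase-like protein, rose by 0.82 (limma adjusted p 0.0257, lost in 5 of 8 such fits, up to 0.0857 with NC replicate 1 removed). Both were higher in 4 of 4 libraries. Of the 16, 9 had a positive log2 fold change (56.2%, beside 49.9% of all genes), with a median of 0.16, and the lowest member was Ccdc80, a matrix protein gene, at -0.79 (limma adjusted p 0.0840).

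No gene of the Hippo pathway itself passed in limma (0 of 20, beside 5.72% of all genes). At an unadjusted p under 0.05 there were 3 of 20 (15.0%, beside 22.6% of all genes). Positive log2 fold changes were found for 16 of 20 (80.0%, beside 49.9%), with a median of 0.20. The largest values were those of Tead4, a YAP partner (0.65, limma adjusted p 0.379), and Mob1b, a LATS activator (0.62, limma adjusted p 0.171). Both had an adjusted p under 0.05 without 0 h p.r. replicate 4 (0.00747 and 0.0382). Neither passed in the other 7 fits that left out a library (limma adjusted p up to 0.645 and 0.370, without 0 h p.r. replicate 3). Yap1 itself had 49.7 FPKM in the controls against 54.7 after running (log2 fold change 0.12, limma adjusted p 0.723).

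Among 5 partners of SRF, 1 passed, beside 5.72% of all genes. Myocd, for myocardin, the coactivator of heart and smooth muscle, had 1.304, 1.31, 1.39 and 2.06 FPKM in the controls against 3.901, 4.70, 4.89 and 3.40 after running. The groups were apart, and Myocd rose by 1.23 on the log2 scale (SE 0.18, limma adjusted p 0.00685, 0.00587 to 0.0296 when each library was left out). Of the 6 smooth muscle and pericyte markers, 0 rose and 1 fell in limma, beside 3.49% higher and 2.23% lower of all genes, and none was listed at 0. In the cytoskeletal list below, Acta2, Cnn1, Actg2, Tagln and Myl9 had log2 fold changes of 0.44, 0.87, 0.34, 0.26 and 0.08. These did not pass (limma adjusted p 0.207 to 0.919). The 6 markers summed to 1083 to 1257 FPKM in NC against 692 to 1914 after running, and without Des, which skeletal muscle also expresses, the other 5 summed to 614 to 739 FPKM in NC against 551 to 763 after running. Mrtfa and the ternary complex factor genes Elk1, Elk3 and Elk4 had log2 fold changes of -0.33 (Elk3) to 0.21 (Elk4), none of which passed.

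Of 26 further cytoskeletal and adhesion targets of SRF, 2 passed (7.69%, beside 5.72% of all genes) and 22 had a positive log2 fold change (84.6%, beside 49.9%), with a median of 0.23. Cnn2, for the actin-binding calponin 2, had 24.0, 30.7, 26.8 and 28.0 FPKM in the controls against 50.7, 62.0, 46.8 and 43.6 after running. It rose by 0.87 on the log2 scale (SE 0.14, limma adjusted p 0.00938) and passed in all 8 fits that left out a library. Itga5, the alpha subunit of the fibronectin receptor, rose by 0.62 (limma adjusted p 0.0493), a call that held in only 1 of those 8 fits, without NC replicate 4. Values that did not pass ran from Tpm3 at -0.80 (limma adjusted p 0.0621) to Tpm1 at 1.06 (limma adjusted p 0.441), tropomyosin genes that skeletal muscle expresses as well.

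The 11 immediate-early targets with a row had 9 past the adjusted p (beside 5.72% of all genes), all 9 also over a fold of 2 (beside 2.70%), and a median log2 fold change of 1.85. The 5 largest log2 fold changes among the 9 were those of Nr4a1 (3.45), Junb (2.88), Fos (2.68), Egr1 (2.44) and Btg2 (1.85). Fosb had 3.18 and did not pass (limma adjusted p 0.0735), with NC libraries between 0.648 and 29.7 FPKM. The smallest value in that list, 1.12 for Egr2 (limma adjusted p 0.0563), was above those of all 10 mechanotransduction targets.

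**Figure D4:**
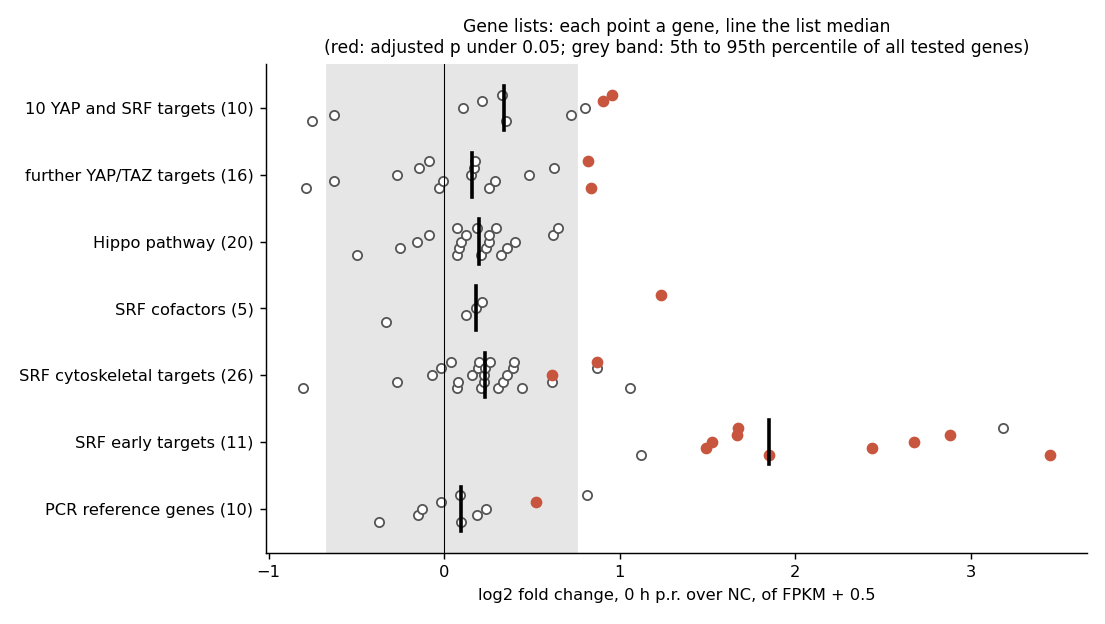
Log2 fold change of 0 h p.r. over NC (horizontal axis, log2 of FPKM + 0.5) for each tested gene of 7 lists, with the number tested in brackets, red points for an adjusted p under 0.05, a black line for the list median and a grey band from the 5th to the 95th percentile of all tested genes. The median of the early targets is 1.85 and that of the 10 YAP and SRF targets is 0.34.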

How the data were processed

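Polyadenylated RNA of 8 Achilles tendon libraries was compared, 4 of 0 h p.r. and 4 of NC, grouped by their titles. Per the study's methods and processing notes, the authors aligned stranded reads with HISAT2 2.1.0 to Rnor_6.0, counted them with featureCounts 1.6.3 and normalized with DESeq2 1.30.1. The deposited FPKM values are per gene length and scaled between libraries, and 0 other columns of values per sample were present. Also deposited were a log2 fold change and p-values, plain and adjusted, from the authors' own comparison, none of which was used. Whole reads were recovered from the steps of the FPKM values for all 15590 rows (within 0.02 of a whole number), and gene lengths were then whole for 99.8%. The median gene had 218 reads per library.

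A gene was tested if 4 or more libraries reached an FPKM of 0.5 (13863, with 1727 left out). The groups were compared on log2(FPKM + 0.5) with limma 3.58.1 in R 4.3.3 (lmFit, eBayes with trend), two-sided, with Benjamini-Hochberg adjustment over all tested genes and a threshold of 0.05. Fold changes are on this scale, which understates those of low genes. The scripts were tested on simulated data. Summaries were made in Python 3.11.15. Named genes were the 10 members, up to 5 genes per list past the adjusted p (the 2 largest where none passed) and the 3 genes most correlated with each member, of which some are given. Genes outside this rule (the ends of a range, Fosb, Yap1 and the other SRF partners) were chosen after their values were seen. The members and lists were chosen with earlier results of these data known. Alternatives were pseudocounts of 0.1 and 1, no filter, a filter at a mean FPKM of 2, median-ratio and quantile scaling, a replicate block, array weights, muscle markers as a covariate, voom on the recovered reads, limma's treat with a fold of 1.5, a table of protein-coding genes alone and leaving out each library. Leaving out 0 h p.r. replicates 1 and 4 together was added after the data were seen. Some genes and 1 gene list are not reported here.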

Additional observations from a re-analysis of the deposited data

Results flagged for a closer look

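Actb in 0 h p.r. replicate 2, at 1381 FPKM, stood apart from the other 3 libraries of its group (1126 to 1159 FPKM), with a gap of 0.870 of the group's range, above the 95% limit of Dixon's ratio for 4 libraries. It was the only such value among the 20 groups of libraries examined for the 10 genes, and chance flags about 1 group in 20. Without that library the log2 fold change of Actb was 0.15.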

How the results depend on the processing

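The count of 2 of the 10 genes past the adjusted p, Actg1 and Srf, was 1 with the replicate number as a block, 5 with array weights (with Amotl2, Ccn1 and Vcl), 4 with the muscle markers as a covariate (with Amotl2 and Ccn1) and 0 in the test against a fold of 1.5, and it ran from 1 to 4 when each library was left out. The count past both thresholds, 0, was 1 with array weights and ran from 0 to 1 when each library was left out (Actg1, on removing NC replicate 2 or 0 h p.r. replicate 4). The count of 16 pathway genes was 28 with array weights and 7 against a fold of 1.5, and ran from 10 to 19 when each library was left out (10 on removing NC replicate 1 or 0 h p.r. replicate 2). The calls over all genes moved as well, from 793 in the main fit to 2069 with array weights and 1045 with the muscle markers as a covariate. They were 60 in the test against a fold of 1.5 and 280 without NC replicate 1. In all other alternatives, including the one without 0 h p.r. replicates 1 and 4, the 3 counts stayed within 1.5 times their value. The sign turned for Ccn2 with array weights (-0.13) and on removing NC replicate 2 (-0.17) or 0 h p.r. replicate 4 (-0.24), in a range of -0.24 to 0.50 over the libraries left out. That of Ankrd1 turned on removing 0 h p.r. replicate 4 (0.24), in a range of -1.19 to 0.24. The cause was not tested. Of 504 values of 24 named genes under the alternatives, 444 kept their direction and side of the threshold, 45 lost the call, 11 gained it and 4 turned. The correlation of deviations from the group means was -0.14, -0.07, 0.07 and 0.01 for same-numbered libraries, and -0.25 to 0.23 for differently numbered ones. Such values cannot show whether same-numbered libraries were handled together. With the replicate block Srf had a limma adjusted p of 0.0725 and Actg1 of 0.0393, and the calls over all genes fell to 235.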

Other observations

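The CArG box and the TEAD core were also counted in the other lists. Of 9121 tested genes with a single promoter sequence 1.16% had a CArG box in the 250 bases before the start, as did 6 of 332 genes that were higher at an adjusted p under 0.05 (1.81%) and 1 of 197 that were lower (0.508%). In the list of cytoskeletal targets it was present in 1 of 18 genes, Cnn2, and in that of immediate-early targets in 2 of 9, Egr1 and Egr2. In the lists of Hippo genes (11 with a promoter) and of further YAP/TAZ targets (11) there was none. The TEAD core was present in 10% of the tested genes, in 36 of 332 that were higher (10.8%) and 28 of 197 that were lower (14.2%). It was present in 5 of 18 cytoskeletal targets (27.8%), 4 of 11 Hippo genes (36.4%), 2 of 11 further YAP/TAZ targets (18.2%) and 1 of 9 immediate-early targets (11.1%). Of 6 skeletal muscle markers with a promoter, 1 had a CArG box (Acta1) and 2 had a TEAD core (33.3%). No test was made of these counts.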
